A study of Mus musculus with 16 samples.

Results

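The genes described here are 10 markers of fibro-adipogenic progenitors, the interstitial mesenchymal cells of skeletal muscle. They were chosen by symbol, as a set of marker genes, and all 10 were found among the 55487 genes of the deposited table. These genes and the other gene lists were chosen with earlier results of these data known. Counts over them are therefore descriptions and not independent support. The study measured RNA from mouse skeletal muscle in 16 libraries of 4 groups with 4 libraries each: wild-type (WT) without training, WT after treadmill training, CHCHD4 transgenic (Tg) without training, and CHCHD4 Tg after treadmill training. CHCHD4 is the mitochondrial import receptor of the disulfide relay, and the study asked which molecular changes go with this gene and with exercise training. The labels name neither which muscles were taken, nor strain, age or sex, nor the promoter that drives the transgene, nor the length of the training. They number the libraries within a group without saying that each came from a separate animal, so p-values measure the spread between these libraries, which may be technical in part.

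Fibro-adipogenic progenitors lie between muscle fibres, carry the receptor Pdgfra, and are known as the main source of both fibroblasts and adipocytes in injured muscle. They secrete much of the endomysial and perimysial matrix and support satellite cells, the stem cells of the fibre. Fibroblasts that express Pi16 and Dpp4 are known from many tissues as a progenitor-like population of the connective tissue around larger structures. None of the 10 genes is exclusive to these cells: Cd34 and Ly6a are also found on endothelium, and Gsn, Dcn and Lum in other stromal cells. The data are bulk RNA, in which fewer cells of a type and less of their RNA per cell cannot be told apart.

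Library totals ran from 40888325 to 61703724 estimated counts. Chchd4 was at 6.88 to 8.98 CPM (counts scaled to a common library total) in the 8 WT libraries and at 18.1 to 22.2 CPM in the 8 Tg libraries, so no library went against its genotype label. The label of the tissue was met by 10 muscle fibre genes, whose summed level was 126611.5 to 194504.0 CPM across the libraries. The summed level of the 10 progenitor markers was 362.3 to 797.9 CPM. Some libraries stood apart: WT untrained replicate 2 had the highest normalization factor, 1.285, against 0.924 to 1.105 in the others. Alb, a liver gene, was at 35.6 CPM in WT trained replicate 4, at 14.9 in WT untrained replicate 2 and at 15.0 in Tg untrained replicate 2. Myh7, the slow myosin heavy chain, exceeded 10 CPM in both Tg untrained replicates 2 and 3, in WT trained replicate 3 and in WT untrained replicate 2.

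Positions are given on GRCm38 (mm10) from the GENCODE M21 annotation. Dcn (chr10:97479609-97518143) and Lum (chr10:97565128-97572703) are neighbours on the plus strand, with 46984 bases between the end of Dcn and the start of Lum. The other positions are Pdgfra chr5:75152292-75198215 (+), Ly6a chr15:74994877-74998031 (-), Cd34 chr1:194938819-194961279 (+), Gsn chr2:35256380-35307892 (+), Dpt chr1:164796644-164824266 (+), Pi16 chr17:29317680-29330593 (+), Dpp4 chr2:62330073-62412231 (-) and Clec3b chr9:123150946-123157432 (+). As a level per length of joined exons, Gsn was highest at 98.7 CPM per kb over all libraries, followed by Dcn at 25.4 and Ly6a at 10.1. Dpt was at 8.41, Lum at 6.22, Clec3b at 4.23, Cd34 at 3.92, Pdgfra at 1.89, Pi16 at 1.57 and Dpp4 at 0.422 CPM per kb. Dpp4 rested on the fewest reads, 69 to 278 estimated counts a library, and Gsn on the most, 7653 to 24763.

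For 4 genes that differ in how far apart their lowest and highest libraries lie, the RefSeq promoter on GRCm38.p6 is shown. It runs from 250 bases before to 50 bases after the annotated start. Pi16, Dpp4 and Dpt varied 4.41-, 4.1- and 2.8-fold over the libraries, and Pdgfra, the receptor that defines the cell, 1.8-fold. Capitals mark matches on either strand to TATAAA (the TATA box core), to CCAAT (the CCAAT box), to GGGCGG (the GC box of Sp1), to TGANTCA (the AP-1 site) or to GGAATG (the TEAD site). No motif overlaps another in these windows.
Pi16, chr17:29318632-29318931, plus strand: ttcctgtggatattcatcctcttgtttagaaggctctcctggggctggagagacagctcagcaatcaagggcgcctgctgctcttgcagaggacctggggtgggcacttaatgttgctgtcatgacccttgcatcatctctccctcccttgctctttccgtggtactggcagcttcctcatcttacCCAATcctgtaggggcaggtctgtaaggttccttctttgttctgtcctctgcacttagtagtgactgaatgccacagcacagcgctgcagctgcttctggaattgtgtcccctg
Dpp4, chr2:62412182-62412481, minus strand: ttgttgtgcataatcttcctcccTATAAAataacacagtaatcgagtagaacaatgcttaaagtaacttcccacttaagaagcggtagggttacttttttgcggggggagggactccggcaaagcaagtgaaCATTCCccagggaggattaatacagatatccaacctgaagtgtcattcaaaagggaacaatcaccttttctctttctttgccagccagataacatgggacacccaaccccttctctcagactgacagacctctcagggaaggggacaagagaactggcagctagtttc
Dpt, chr1:164796413-164796712, plus strand: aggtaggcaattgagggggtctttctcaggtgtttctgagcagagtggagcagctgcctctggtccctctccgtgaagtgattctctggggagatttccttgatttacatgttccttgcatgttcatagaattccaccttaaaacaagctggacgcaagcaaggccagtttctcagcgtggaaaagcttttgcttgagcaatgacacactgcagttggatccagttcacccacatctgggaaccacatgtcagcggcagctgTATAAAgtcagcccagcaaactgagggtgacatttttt
Pdgfra, chr5:75152001-75152300, plus strand: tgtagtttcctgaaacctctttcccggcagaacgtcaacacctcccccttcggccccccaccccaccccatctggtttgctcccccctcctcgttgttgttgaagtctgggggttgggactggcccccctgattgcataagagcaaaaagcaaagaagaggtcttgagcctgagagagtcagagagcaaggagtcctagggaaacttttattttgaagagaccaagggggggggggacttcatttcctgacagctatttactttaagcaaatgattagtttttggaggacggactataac
Pi16 holds CCAAT at position -64 from the start, Dpt holds TATAAA at 13, and Dpp4 holds TATAAA at -227 and the opposite strand of GGAATG at -118. The Pdgfra window holds none of the 5 motifs. Among all 32851 RefSeq promoters of 300 bases, 37.4% hold a CCAAT box and 13.6% a TATA box core. The GC box of Sp1 is in 35.7%, the TEAD site in 14.7% and the AP-1 site in 7.81%. The 4 windows hold 3 to 5 CpG, against a median of 7 in all promoters, and no motif is shared by all of them. Promoters were matched for 6 of the 10 genes.

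Among the receptors and surface antigens, Pdgfra, the receptor tyrosine kinase for PDGF ligands, had group means of 16.5 (trained Tg) to 20.9 CPM (untrained WT). Its level was 22.8, 23.6, 18.4 and 18.9 CPM in WT untrained replicates 1 to 4 and 20.2, 13.6, 14.8 and 22.1 CPM in trained WT. It was 21.5, 24.5, 21.6 and 14.9 CPM in untrained Tg and 18.3, 15.5, 16.5 and 15.4 CPM in trained Tg. The trained Tg libraries were all just below the untrained WT ones, at most 18.3 against at least 18.4 CPM, and every other pair of groups overlapped. For orders spanning both genotypes, as here and below for Ly6a, Dpp4, Dcn, Lum and Pi16, the share of all genes was not counted.

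Cd34, a sialomucin of progenitor cells and endothelium, varied least of the 10, with 1.63-fold between its lowest and highest library. Its mean was 29.7 ± 2.20 CPM in untrained WT, 27.5 ± 5.10 in trained WT, 31.4 ± 2.97 in untrained Tg and 25.7 ± 2.38 in trained Tg (SD, n = 4). Every pair of groups overlapped.

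Ly6a (Sca-1), a GPI-anchored antigen used to sort these cells, was at 13.0, 14.9, 13.3 and 13.9 CPM in untrained WT and at 13.3, 9.19, 15.4 and 17.9 CPM in trained WT. In the Tg muscles it was at 11.3, 12.5, 10.8 and 11.4 CPM without training and at 10.2, 8.35, 10.5 and 8.49 CPM with training. All 4 Tg trained libraries were therefore below every untrained library, and the untrained Tg libraries were below the untrained WT ones. Ly6a shares 19% of its 50-base stretches with Ly6c1, Ly6c2, Ly6i or I830127L07Rik, and 9 of its 16 estimated counts were not whole, so reads may have been split between these genes.

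Dpp4 (CD26), a serine peptidase of the cell surface, was the lowest of the 10. It was at 3.12, 4.96, 2.78 and 2.80 CPM in untrained WT, at 2.99, 1.64, 2.57 and 3.85 CPM in trained WT and at 2.39, 3.99, 3.00 and 2.30 CPM in untrained Tg. In trained Tg it was at 2.17, 1.21, 1.38 and 1.48 CPM. The 4 Tg trained libraries were below every untrained library, and 3 of them were below all 12 other libraries.

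Of the matrix proteins, Dcn (decorin), the collagen-binding small leucine-rich proteoglycan, was at 180.6, 226.3, 181.5 and 173.4 CPM in untrained WT and at 131.6, 86.8, 73.2 and 167.6 CPM in trained WT. Its level was 152.5, 196.0, 200.4 and 141.7 CPM in untrained Tg and 129.7, 106.4, 122.9 and 102.2 CPM in trained Tg. Trained and untrained libraries did not overlap within either genotype, and 7 of the 8 trained libraries were below all 8 untrained ones. The exception was WT trained replicate 4 at 167.6 CPM.

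Lum (lumican), its neighbour and family member, was at 20.7, 15.5, 15.3 and 15.4 CPM in untrained WT and at 12, 9.52, 10.5 and 18.3 CPM in trained WT. It was at 20.8, 16.2, 17.5 and 13.7 CPM in untrained Tg and at 17.6, 14.4, 13.2 and 13.2 CPM in trained Tg. Here 3 WT trained libraries, but only 2 Tg trained ones, were below all untrained libraries.

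Dpt (dermatopontin), a matrix protein that binds decorin, was at 18.7, 24.0, 17.9 and 16.5 CPM in untrained WT, at 15.5, 9.03, 13.0 and 19.0 CPM in trained WT, at 16.6, 17.1, 13.7 and 11.9 CPM in untrained Tg and at 11.9, 8.63, 10 and 8.56 CPM in trained Tg. Its mean was highest in untrained WT at 19.2 ± 3.29 CPM and lowest in trained Tg at 9.79 ± 1.58 CPM, with the other groups between them at 14.1 ± 4.19 (trained WT) and 14.8 ± 2.48 CPM (untrained Tg) (SD, n = 4). These last did not differ beyond their spread.

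Of the other secreted or actin-binding members, Pi16, a peptidase inhibitor family protein of the CAP superfamily, had the widest range of the 10, 4.41-fold over the libraries. It was at 9.55, 17.9, 13.0 and 12.4 CPM in untrained WT, at 11.2, 5.14, 12.1 and 14.5 CPM in trained WT, at 8.81, 13.6, 11.5 and 10.1 CPM in untrained Tg and at 5.65, 4.05, 6.47 and 4.12 CPM in trained Tg. All Tg trained libraries were below all untrained libraries of both genotypes. Of the WT trained libraries only replicate 2, at 5.14 CPM, was in the trained Tg range. All 16 of its estimated counts were not whole, and 0.94% of its 50-base stretches occur in other genes.

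Gsn (gelsolin), an actin-severing protein with a secreted form, was the most abundant. It was at 385.2, 440.2, 355.1 and 365.1 CPM in untrained WT, at 330.4, 202.3, 200.4 and 374.2 CPM in trained WT, at 340.0, 373.7, 394.2 and 265.8 CPM in untrained Tg and at 267.6, 207.0, 254.3 and 228.3 CPM in trained Tg. In each genotype 1 trained library, WT replicate 4 and Tg replicate 1, lay inside the untrained range. Clec3b (tetranectin), a plasminogen-binding lectin, was at 4.42 ± 0.488, 4.55 ± 1.11, 4.07 ± 0.425 and 3.74 ± 0.725 CPM in untrained WT, trained WT, untrained Tg and trained Tg (SD, n = 4), and all its groups overlapped.

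**Figure D1:**
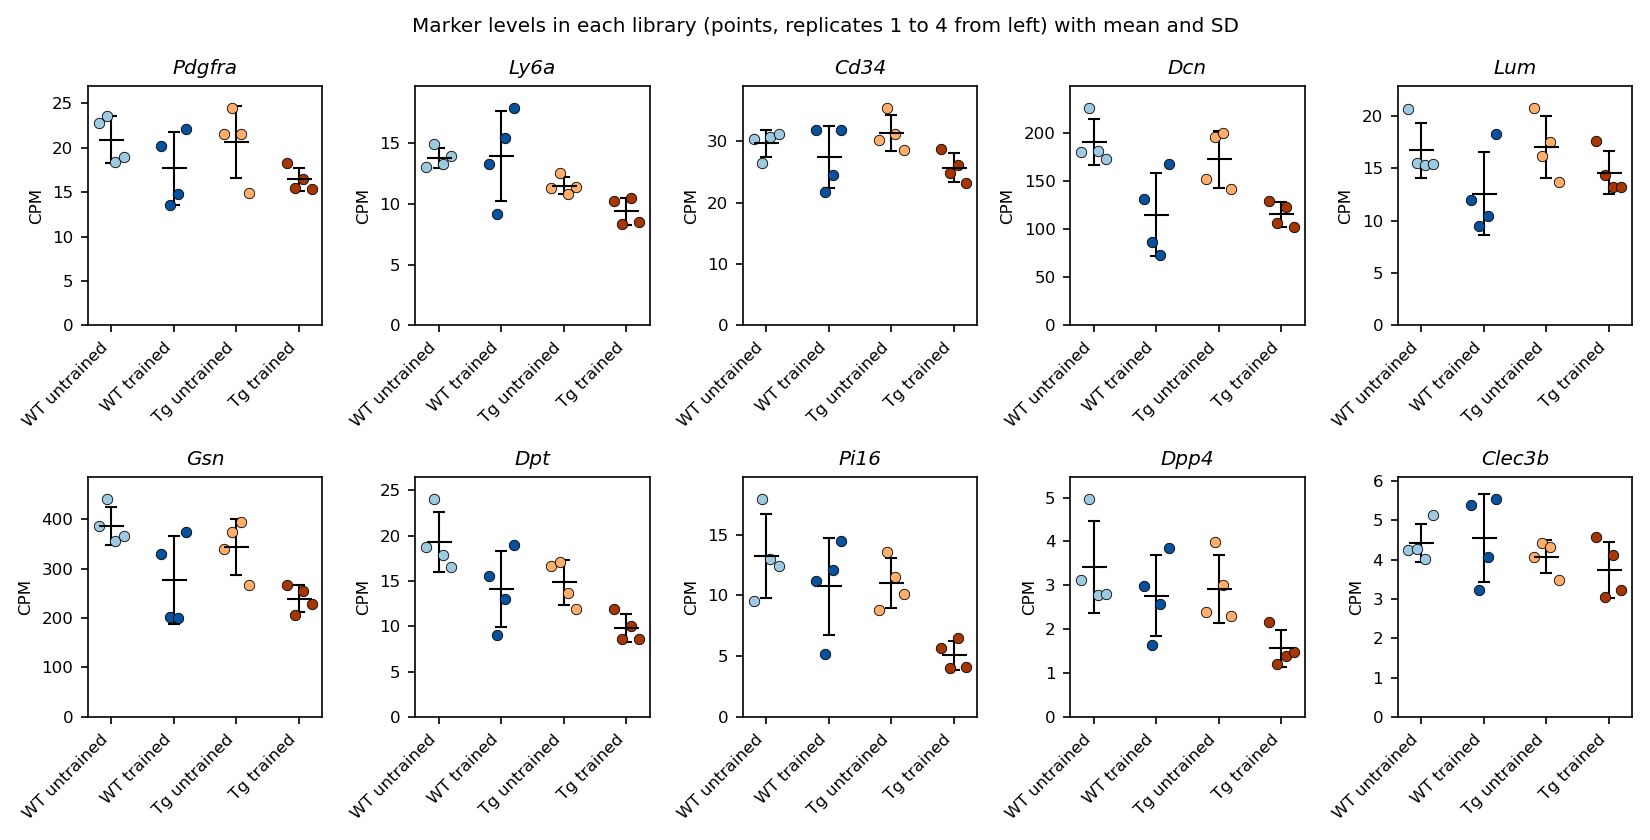
Level of each of the 10 genes in CPM (y axis, starting at 0) in the 4 groups (x axis), with each point 1 library and the bar the mean ± SD of 4 libraries. The Tg trained libraries are the lowest group for Pi16 (4.05 to 6.47 CPM) and Dpp4 (1.21 to 2.17 CPM), and trained WT spreads widest for Dcn (73.2 to 167.6 CPM).

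Taking both genotypes together, all 10 genes had a lower estimate in trained than in untrained muscle, against 49.5% of all genes, but none was called. The test was edgeR's quasi-likelihood test over 17490 genes, which included all 10, with Benjamini-Hochberg adjustment and a call at an adjusted p under 0.05. In this comparison 0.457% of all genes were called. Dcn came nearest with a log2 fold change of -0.66 (SE 0.144, edgeR adjusted p = 0.0574). Gsn had -0.50 (SE 0.128, adjusted p = 0.0979) and Dpt -0.52 (SE 0.134, adjusted p = 0.0979). Pi16 followed with -0.71 (SE 0.183, adjusted p = 0.102) and Dpp4 with -0.61 (SE 0.187, adjusted p = 0.153).

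At the unadjusted level, 8 of the 10 genes had p under 0.05 and a lower estimate, against 7.76% of all genes tested. The median log2 fold change of the 10 was -0.408, against 0.002 over all genes. The 2 that stayed out were Ly6a at -0.14 and Clec3b at -0.04, with edgeR adjusted p of 0.571 and 0.908. The 10 genes varied together across libraries, as described further on, so they are not independent of each other.

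The absence of a call depended on the method and on single libraries. With DESeq2, 4 genes were called lower in trained muscle, Dcn (adjusted p = 0.00212), Pi16 (0.0153), Gsn (0.0153) and Dpt (0.0175). Without WT trained replicate 4, edgeR called 5, the same 4 genes with adjusted p from 0.0101 to 0.0365 and Lum at 0.0384. Calls over all genes were more numerous there too, 367 with DESeq2 and 389 without that library, against 80 with edgeR on all libraries. Dcn alone was also called without WT untrained replicate 2 (edgeR adjusted p = 0.0482, 218 genes called in all) and without Tg untrained replicate 4 (0.0453, 123 genes), and over all 25 alternatives its adjusted p ran from 0.00212 to 0.203. The limma-voom test called none.

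Within the WT muscles, the largest training difference was in Dcn, with a log2 fold change of -0.73 (SE 0.203, edgeR adjusted p = 0.292). Its trained WT mean was 114.8 ± 43.2 CPM against 190.5 ± 24.1 CPM untrained (SD, n = 4). Gsn (-0.48), Dpt (-0.44) and Lum (-0.41) followed. With Dcn these were the 4 genes at an unadjusted p under 0.05, against 4.79% of all genes with such a p and a lower estimate. Of the 10 genes, 8 had a negative estimate, against 48.7% of all genes, and the median of the 10 was -0.301. None of the 10 was called, nor by DESeq2, against 0.143% of all genes. Dcn was also the only one whose WT trained libraries all lay below the WT untrained ones, which was so for 2.03% of all genes. Without WT trained replicate 4 it had -0.97 and was called (edgeR adjusted p = 0.048, with 30 genes called in all against 25), and over 26 alternatives its adjusted p ran from 0.048 to 0.733.

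Within the Tg muscles, the largest training differences were in Pi16 and Dpp4 rather than in the proteoglycans. Pi16 averaged 5.07 ± 1.19 CPM in trained and 11 ± 2.04 CPM in untrained Tg muscle (SD, n = 4), a log2 fold change of -1.12 (SE 0.264, edgeR adjusted p = 0.143). Dpp4 averaged 1.56 ± 0.421 CPM against 2.92 ± 0.779 CPM, a log2 fold change of -0.91 (SE 0.270, adjusted p = 0.238). Dpt had -0.60 (SE 0.190, adjusted p = 0.268), Dcn -0.58 and Gsn -0.52 (both at an adjusted p of 0.305). No member and no other gene was called by edgeR (0% of all genes), with 1938 genes at an unadjusted p under 0.05 and 126 called by DESeq2. All 10 had a negative estimate (median -0.423), against 49.4% of all genes. Of the 10, 6 had an unadjusted p under 0.05 and a lower estimate, against 6.81% of all genes with such a p and a lower estimate.

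Dcn, Dpp4, Ly6a and Pi16 were lower in every trained than in every untrained Tg library, a pattern that 4.53% of all genes had. Pi16 was called with DESeq2 (adjusted p = 0.0099) and in an edgeR fit of the 8 Tg libraries alone (0.0275), which called 126 and 123 genes in all. Its adjusted p ran from 0.0099 to 0.422 over 26 alternatives, with a log2 fold change between -1.26 and -0.90.

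**Figure D2:**
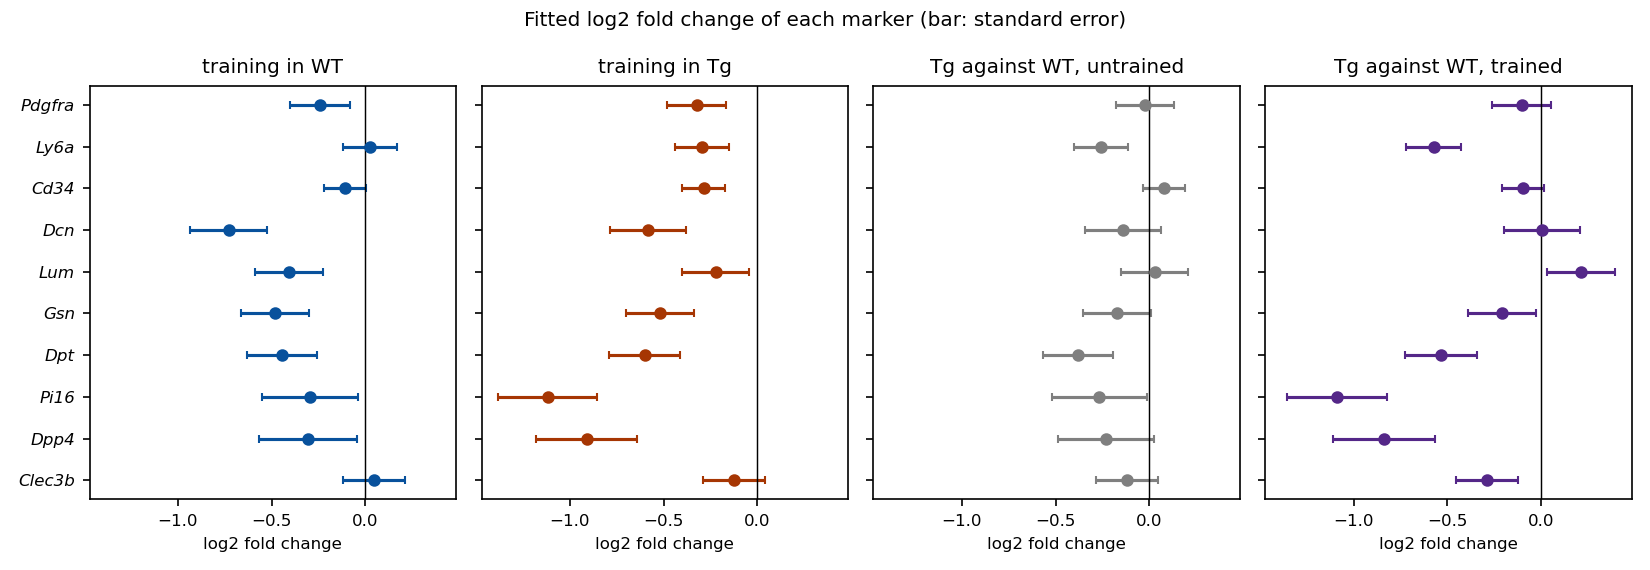
Log2 fold change (x axis) with its standard error for each of the 10 genes (y axis) in the training and transgene comparisons, from the edgeR fit over all 16 libraries. Points left of 0 are lower after training or in Tg muscle, and Pi16 lies near -1.1 both for training in Tg and for Tg against WT in trained muscle.

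The transgene comparison in untrained muscle gave small estimates. No gene of the 10 reached an unadjusted p of 0.05, while 16.2% of all genes did, and none was called, against 0.743% of all genes. Of the 10, 8 had a negative estimate (median -0.156), against 49.2% of all genes. The estimates with the greatest size were -0.38 for Dpt, -0.27 for Pi16 and -0.26 for Ly6a. The Ly6a libraries of the groups did not overlap (11.5 ± 0.722 CPM in Tg against 13.8 ± 0.825 CPM in WT, SD, n = 4), as was so in this direction for 4.16% of all genes. DESeq2 and limma-voom called none of the 10 either.

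In trained muscle, Pi16, Dpp4, Ly6a and Dpt were lower in Tg than in WT by estimate, while Dcn and Lum were not. Pi16 had a log2 fold change of -1.09 (SE 0.265, edgeR adjusted p = 0.287), Ly6a -0.57 (SE 0.145, adjusted p = 0.330), Dpp4 -0.84 (SE 0.272, adjusted p = 0.427) and Dpt -0.53 (SE 0.191, adjusted p = 0.481). Dcn had 0.01 and Lum 0.21, the only 2 positive estimates, so 8 were negative, against 50.9% of all genes. Pi16, Ly6a, Dpp4 and Dpt had an unadjusted p under 0.05, against 4.73% of all genes with such a p and a lower estimate. None was called, against 0.0114% of all genes. The groups overlapped for every member, while 2.76% of all genes had Tg below WT with no overlap. Without WT trained replicate 2, Pi16 (-1.32) and Ly6a (-0.73) were called, both at an edgeR adjusted p of 0.0264. DESeq2 called Pi16 (0.0216). Over all genes these fits called 16 and 54, against 2 with edgeR on all libraries. Over 26 alternatives the adjusted p ran from 0.0216 to 0.779 for Pi16 and from 0.0264 to 0.779 for Ly6a. This comparison and the one for training in Tg share the Tg trained libraries, so their estimates for Pi16 and Dpp4 are not separate evidence.

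Averaged over training states, Tg against WT gave -0.42 for Ly6a (SE 0.102, edgeR adjusted p = 0.0587), -0.68 for Pi16 (SE 0.183, 0.078), -0.46 for Dpt (SE 0.134, 0.0996) and -0.53 for Dpp4 (SE 0.187, 0.157). Lum was the only one with a positive estimate, so 9 were negative, against 50.2% of all genes. None was called, against 1.12% of all genes, and Ly6a, Pi16, Dpt and Dpp4 had an unadjusted p under 0.05, against 8.89% of all genes with such a p and a lower estimate. Without WT trained replicate 2, edgeR called Ly6a (0.00738), Pi16 (0.0157) and Dpt (0.0285), and DESeq2 on all libraries called the same 3 (0.0113, 0.0161 and 0.0396). Over all genes these fits called 374 and 639, against 196. The adjusted p of Ly6a ran from 0.00738 to 0.167 over 25 alternatives.

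Whether the response to training differed between genotypes was tested directly. The difference was -0.82 on the log2 scale for Pi16 (SE 0.366, unadjusted p = 0.0392, edgeR adjusted p = 0.801) and -0.61 for Dpp4 (unadjusted p = 0.125). Of the 10, 8 had a negative difference (median -0.163), against 51.5% of all genes. None of the 10 was called, against 0.0515% of all genes, and Pi16 was the only one with an unadjusted p under 0.05, against 3.6% of all genes with such a p and a lower estimate. DESeq2 and limma-voom called none. The data therefore do not show that Pi16 or any other of these genes responded differently in the 2 genotypes.

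Set against Pdgfra in the same library, a ratio chosen after the values were seen and given as a description, Pi16 was lowest in trained Tg muscle. Its log2 ratio to Pdgfra was -1.94 to -1.35 in trained Tg, -1.29 to -0.56 in untrained Tg, -1.40 to -0.29 in trained WT and -1.25 to -0.40 in untrained WT. The Dpp4 ratio averaged -3.43 in trained Tg and -2.83, -2.71 and -2.65 in untrained Tg, trained WT and untrained WT. The Dcn ratio was 3.19 and 3.08 in untrained WT and Tg, and 2.65 and 2.81 in trained WT and Tg. Ly6a had mean ratios of -0.60 and -0.35 in untrained and trained WT and of -0.82 and -0.81 in untrained and trained Tg. The Cd34 ratio, by contrast, averaged 0.51 to 0.65 in the 4 groups (SD up to 0.273).

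The libraries of a group differed in most of the 10 genes at once. WT trained replicate 4 was the highest of its group for 9 of the 10 genes and WT trained replicate 2 the lowest for 8. Tg trained replicate 1 was the highest of its group for 8, and Tg untrained replicate 4 the lowest for 8. Over the standardised log2 levels of the 10 genes, the mean was 1.07 SD in WT trained replicate 4 and -1.49 SD in WT trained replicate 2, the highest and the lowest of all libraries. WT trained replicate 4 was also the library with the most Alb (35.6 CPM). Without the 3 libraries above 10 CPM of Alb, edgeR called Dcn (0.0116), Gsn (0.0276), Dpt (0.0316) and Lum (0.0332) lower with training averaged over genotypes, among 584 genes called in all against 80.

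**Figure D3:**
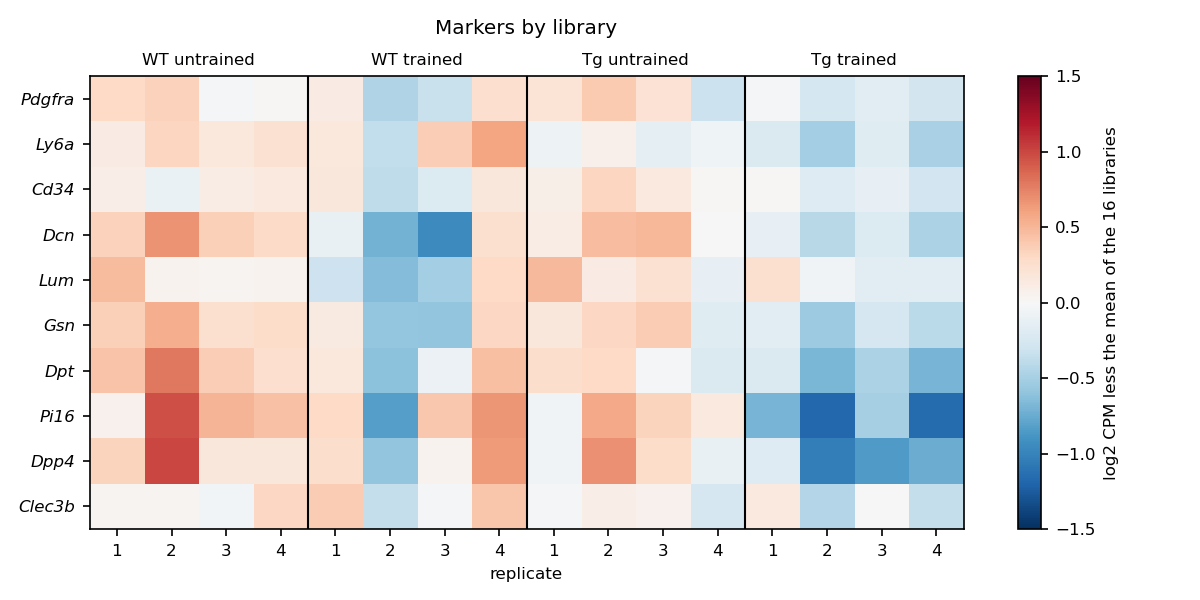
Log2 CPM of the 10 genes (rows) in the 16 libraries (columns, by group and replicate), less the gene's mean over all libraries (colour). WT trained replicate 2 is the lowest of its group in 8 rows and WT trained replicate 4 the highest in 9.

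Across the 16 libraries every one of the 45 pairs of members had a positive correlation of log2 CPM, with a median Pearson r of 0.712. Dcn and Gsn were the closest pair (r = 0.953). Dpt and Dpp4 (0.929) and Pi16 and Dpp4 (0.917) were also close, and Ly6a and Lum were the least alike (0.207). With group means taken out, the median was 0.71. These are descriptions over 16 libraries that share groups and normalization.

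Other genes were ranked by how closely their level followed the mean of the members. The ranking covered 11066 genes with a mean of at least 1 CPM, with unnamed gene models left out. The first 10 were led by Ptprj (r = 0.967), a receptor tyrosine phosphatase, and Rnase4 (0.964), a secreted ribonuclease. Emilin2 (0.953), Efemp1 (0.946) and Tnxb (0.944) encode matrix glycoproteins. Pappa (0.95) encodes a metalloproteinase that cleaves IGF-binding proteins. Tent5a (0.944), Atp10a (0.943) and Adgrd1 (0.94) followed, and the tenth was Csf1r (0.938), the receptor for macrophage colony-stimulating factor. Likeness was measured over 16 libraries and says nothing of control.

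Other genes of interstitial fibroblasts had the same sign with training. Of 29 tested, 27 had a negative estimate averaged over genotypes, against 49.5% of all genes, with a median log2 fold change of -0.339. An unadjusted p under 0.05 in either direction was found for 18, against 2525 of all 17490 genes. None of the 29 was called, against 0.457% of all genes, and with 1 library left out 0 to 5 were. Serpinf1, which encodes the antiangiogenic pigment epithelium-derived factor, had -0.65 (SE 0.159, edgeR adjusted p = 0.0888) and the tetraspanin Cd9 had -0.45 (SE 0.113, adjusted p = 0.0908). Beside Dcn and Lum, 10 of 11 small leucine-rich proteoglycan genes tested had a negative estimate (median -0.494), led by Chad at -1.38 (SE 0.364, adjusted p = 0.107) and Omd at -0.83 (SE 0.229, adjusted p = 0.121). None was called, and 0 to 6 were with 1 library left out. In trained Tg against trained WT muscle only 1 of these 11 was negative (median 0.352), against 50.9% of all genes.

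The lists of fibrogenic and of adipocyte genes gave different counts. Which cells of the tissue these transcripts came from was not tested. Of 23 fibrogenic genes, 22 had a negative training estimate averaged over genotypes (median -0.227), against 49.5% of all genes. None of the 23 was called (0 to 3 with 1 library left out). An unadjusted p under 0.05 in either direction was found for 10, against 2525 of all 17490 genes. Ccn2, a matricellular protein induced by TGF-beta, had -1.08 (SE 0.258, edgeR adjusted p = 0.0782). Of 15 adipogenic and adipocyte genes, 11 had a negative training estimate averaged over genotypes (median -0.543), against 49.5% of all genes. Of the 15, 7 were called lower in trained muscle and none higher, against 0.457% of all genes called. Their summed level averaged 471.9 CPM in untrained and 521.4 in trained WT, and 541.8 in untrained and 508.7 in trained Tg. Lep, the adipokine leptin, fell by 2.87 on the log2 scale (SE 0.460, adjusted p = 0.0147), Cidec, a lipid droplet protein, fell by 2.02 (SE 0.359, 0.0277), and Adipoq, adiponectin, fell by 1.96 (SE 0.372, 0.0339). Adipoq averaged 4.54 and 4.98 CPM in untrained WT and Tg, and 1.59 and 0.966 CPM in trained WT and Tg. With 1 library left out, 1 to 9 of the 15 were called, of which 1 was higher without Tg untrained replicate 4. At most 3 were called, except without WT untrained replicate 2, WT trained replicate 4, Tg trained replicate 3 or Tg untrained replicate 4. DESeq2 on all libraries called 8 lower and 1 higher.

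Of the 6 PDGF ligand and other receptor genes, 1 was called, in a comparison that called 1.12% of all genes. Pdgfrb, the receptor of pericytes and of these progenitors, was higher in Tg than in WT averaged over training states, with a log2 fold change of 0.36 (SE 0.070, edgeR adjusted p = 0.0227). Its mean was 22.6 ± 2.77 and 24.6 ± 2.68 CPM in untrained and trained WT and 29.9 ± 1.75 and 30.6 ± 3.46 CPM in untrained and trained Tg (SD, n = 4). The call was lost without WT trained replicate 3 (0.0536) or Tg trained replicate 4 (0.056), and without the libraries above 10 CPM of Myh7 (0.0507) or WT trained replicates 2 and 4 (0.0652). Its alpha counterpart Pdgfra had -0.06 in that comparison (SE 0.112, adjusted p = 0.812), and the 2 receptors were not tested against each other. Of 10 genes of pericytes and smooth muscle, 2 were called higher in the same comparison, against 1.12% of all genes called. They were Cspg4 (0.49, SE 0.077, edgeR adjusted p = 0.0132) and Notch3 (0.39, SE 0.080, adjusted p = 0.0275). With 1 library left out, 1 to 3 of the 10 were called.

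Markers of other cells of the tissue varied with the members in some comparisons, and their part in the results was not tested. The 12 macrophage genes summed to 57.3 to 96.7 CPM in untrained WT, 35.6 to 114.1 in trained WT, 37.1 to 69.0 in untrained Tg and 32.4 to 46.1 CPM in trained Tg. All 12 had a negative estimate for Tg against WT in trained muscle (median -1.03), against 50.9% of all genes. Of the 12, 10 had an unadjusted p under 0.05, against 1395 of all 17490 genes in either direction. None of the 12 was called (0 to 1 with 1 library left out). In the same comparison Pi16, Ly6a and Dpp4 were lower by estimate. The mannose receptor Mrc1 had -0.86 there (SE 0.279, edgeR adjusted p = 0.428) and the scavenger receptor Cd163 -0.73 (SE 0.244, 0.436). The 11 tendon genes summed to 119.9 to 154.4, 36.4 to 128.8, 130.4 to 233.4 and 82.4 to 146.9 CPM in untrained WT, trained WT, untrained Tg and trained Tg. All 11 had a negative training estimate averaged over genotypes (median -0.886), as Dcn did, against 49.5% of all genes. None of the 11 was called, with 0 to 7 called when 1 library was left out. The matrix protein gene Thbs4 had -0.63 (SE 0.176, edgeR adjusted p = 0.126), and 1 of 11 was negative for Tg against WT in trained muscle. Per library the tendon sum in trained WT was 70.1, 36.4, 45.3 and 128.8 CPM in replicates 1 to 4, so it was highest in replicate 4, as Dcn was. The macrophage sum there was 64.4, 35.6, 59.2 and 114.1 CPM, also highest in replicate 4 and lowest in replicate 2. Of the tendon genes, 2 (Chad and Kera) are in the proteoglycan list too.

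The endothelial genes, which bear on Cd34 and Ly6a, gave training estimates of the other sign. For Tg against WT averaged over training states, where Ly6a was lower by estimate, 1 of 12 was negative (median 0.18), against 50.2% of all genes. Of the 12, 9 had an unadjusted p under 0.05 there, against 3003 of all 17490 genes in either direction. None of the 12 was called, against 1.12% of all genes. With 1 library left out 0 to 3 were called, and DESeq2 on all libraries called 3 higher and 1 lower. The list holds Ly6c1, which shares sequence with Ly6a. The part of endothelium in the levels of Cd34 and Ly6a was not tested. None of 12 had a negative training estimate averaged over genotypes (median 0.083), none was called, and their summed level was 230.3 to 319.3, 304.7 to 336.2, 292.7 to 371.3 and 318.4 to 350.0 CPM in untrained WT, trained WT, untrained Tg and trained Tg. The summed muscle fibre genes overlapped between all groups. Of these 10 fibre genes, 1, Myh2, was called higher in Tg averaged over training states, against 1.12% of all genes called. Its log2 fold change was 1.39 (SE 0.253, edgeR adjusted p = 0.0203), and it was not called without Tg trained replicate 4. Of the 5 liver genes only Alb was tested, with no call.

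**Figure D4:**
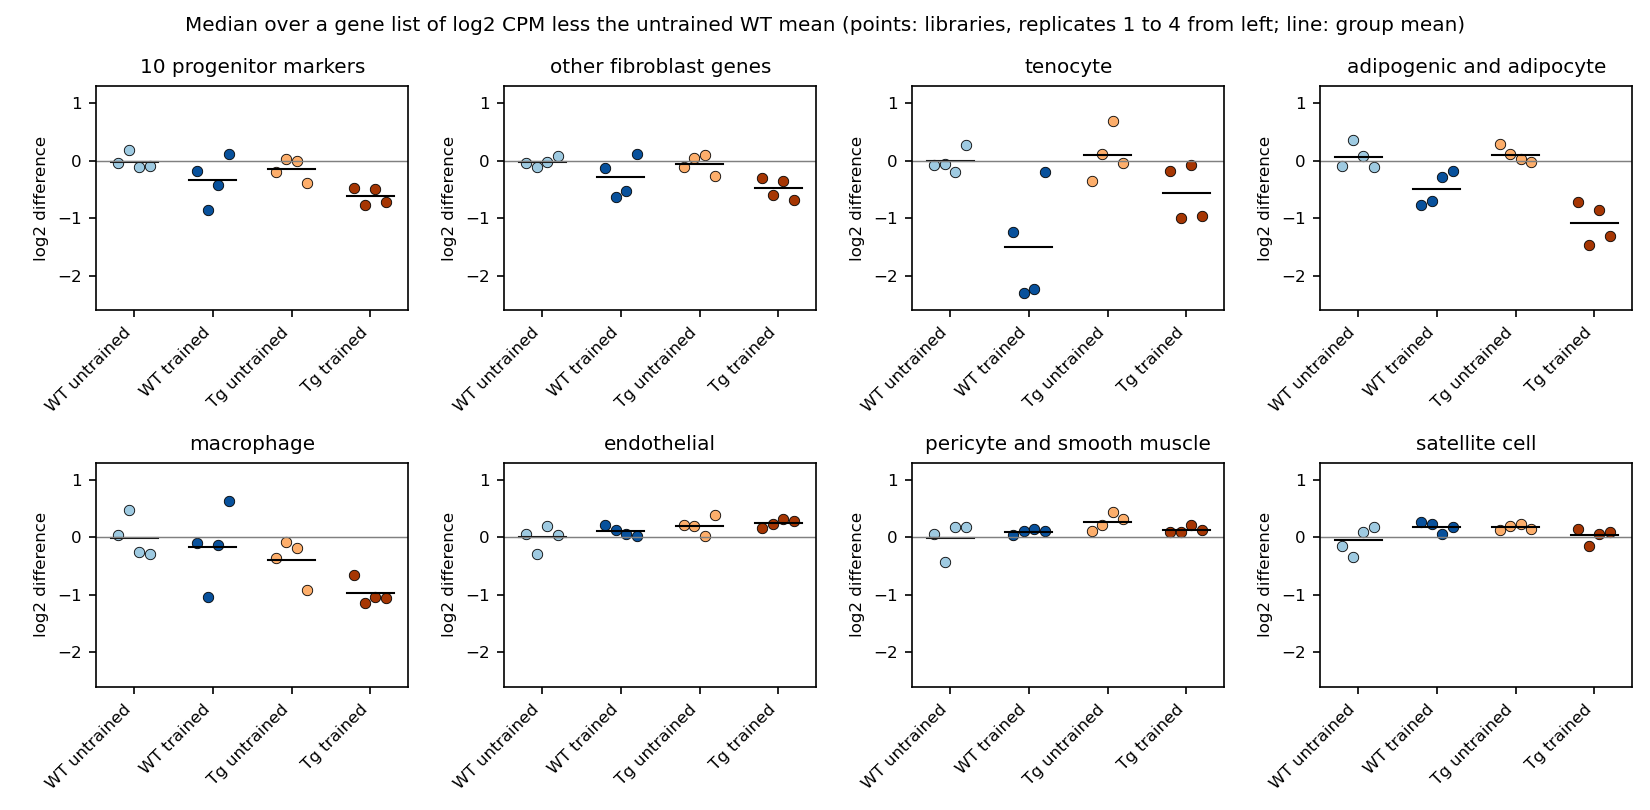
Median over each gene list of log2 CPM less the gene's mean in untrained WT (y axis) by group (x axis), with each point 1 library and the line the group mean. The members are at -0.77 to -0.48 in trained Tg, the tendon genes at -2.30 to -0.20 in trained WT, and the endothelial genes stay between -0.29 and 0.39 in every library.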

How the data were processed

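RNA of mouse skeletal muscle was measured in 16 libraries. Expected counts per gene (RSEM estimates, not normalized) were deposited by the authors, with STAR 2.7.8a, RSEM 1.3.2 and mm10 named per the submitters' processing notes and a SMARTer mRNA-seq kit per the labels. The sources used here do not give whether counting used strand, so reads of Pdgfra, Cd34, Pi16 and Dpp4 cannot be told from those of overlapping genes on the opposite strand. Of the values, 12.48% were not whole, and values were rounded for testing. Replicates differed by more than sampling noise (chi-square per degree of freedom at least 7.28).

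Genes were kept by filterByExpr (17490) and fitted with edgeR 4.0.16 (R 4.3.3; TMM, quasi-likelihood, group means, no block), with Benjamini-Hochberg adjustment within each of 7 contrasts and a call at 0.05. CPM uses TMM library sizes. A log2 CPM adds a prior count of 2 except in the heatmap. Alternatives were DESeq2 1.42.0, voom of limma 3.58.1, RLE factors, other filters, a replicate block, only the 8 libraries compared, and fits without single or unusual libraries. The scripts were tested on simulated data.

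Named genes were the members, up to 3 called genes of each other list (otherwise the 2 with the smallest p for training), the 10 genes most like the members' mean, and Chchd4; 1 gene that the rule names is not reported here. Alb and Myh7 were named to describe libraries. The members and lists were chosen with earlier results of these data known. Lists covered other fibroblast, PDGF, proteoglycan, fibrogenic, adipogenic, endothelial, satellite cell, tendon, pericyte and smooth muscle, macrophage, Schwann cell, muscle fibre and liver genes.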

Additional observations from a re-analysis of the deposited data

Results flagged for a closer look

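In 3 of the 40 groups of 4 libraries (10 genes in 4 groups), a single library stood so far from the others that its gap to the nearest exceeded 0.829 of the group's range, and chance alone flags about 1 in 20 groups. Dcn was at 226.3 CPM in WT untrained replicate 2, with the gap at 0.847 of the range. Dpp4 was at 4.96 CPM in the same library (0.846). Lum was at 20.7 CPM in WT untrained replicate 1 (0.948). All 3 values are the highest of their group, and they come from 2 libraries of WT untrained. Replicate 2 is also the library with the highest normalization factor (1.285) and one of the 3 above 10 CPM of Alb. Without it, the training difference averaged over genotypes was -0.61 for Dcn (edgeR adjusted p = 0.0482).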

How the results depend on the processing

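The median log2 fold change of the 10 genes stayed below 0 in all 7 comparisons when any 1 library was left out. It ran from -0.493 to -0.133 for training in WT, from -0.548 to -0.365 for training in Tg, from -0.222 to -0.054 for Tg against WT without training and from -0.378 to -0.108 with training. It ran from -0.294 to -0.023 for the difference of the responses, from -0.513 to -0.354 for training averaged over genotypes and from -0.258 to -0.126 for Tg against WT averaged over training. The numbers of genes called moved more, and the cause was not tested. In the same order of comparisons, 16 to 30, 0 to 93, 43 to 138, 1 to 16, 6 to 12, 15 to 389 and 29 to 374 genes were called with 1 library left out. Of the 10 members, 0 to 1, 0 to 0, 0 to 0, 0 to 2, 0 to 0, 0 to 5 and 0 to 3 were called.

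DESeq2 called 68 genes for training in WT, 126 for training in Tg, 442 for Tg against WT untrained, 54 trained, 35 for the difference, 367 for training averaged over genotypes and 639 for Tg against WT averaged over training. Its members called were 1 for training in Tg, 1 for Tg against WT trained, 4 for training and 3 for Tg against WT averaged. With no filter, 5 genes were called for training in Tg, 1 for Tg against WT trained and 15 for the difference, with 1 member called in each averaged comparison. The filter at 1 CPM in 4 libraries left 1 gene for Tg against WT trained. A fit of only the 8 libraries compared called 10 genes for training in WT, 123 in Tg (1 member), 40 for Tg against WT untrained and 5 trained.

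Without the libraries above 10 CPM of Alb, 42, 104 and 584 genes were called for training in WT, in Tg and averaged, with 4 members in the last. Without those above 10 CPM of Myh7, 9 genes were called for training in Tg, 32 for Tg against WT untrained, 4 for the difference and 41 for training averaged. Without WT trained replicates 2 and 4, a choice made after seeing the data, 12 genes were called for training in WT, 1 for Tg against WT trained and 65 for Tg against WT averaged, with 1 member in each averaged comparison.

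With the replicate number as a block, 66 genes were called for Tg against WT untrained, 1 trained and 16 for training averaged, and no member. The edgeR adjusted p of Dcn for training averaged was then 0.112. The labels do not say whether a number pairs libraries, and the correlations do not decide it. Same-numbered libraries correlated between -0.153 and 0.176 after removal of group means, with 6 of 24 pairs above 0.1. A library correlated best with its own number in 18 of 48 comparisons with the 4 libraries of another group. This was so for 4 of 4 Tg untrained libraries set against Tg trained, and for 3 of 4 Tg trained libraries set against Tg untrained. Between WT untrained and Tg untrained it was so for 3 of 4 in either direction. In all other comparisons of groups it was so for 0 or 1 of 4, with 0 of 4 for WT trained against Tg trained.

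Signs of estimates close to 0 turned. With limma-voom, Ly6a for training in WT was -0.019 and Gsn in the difference 0.029. Without the Alb libraries, training in WT gave -0.09 for Ly6a and -0.083 for Clec3b, Tg against WT gave -0.037 for Cd34 untrained, 0.019 for Pdgfra trained and 0.065 for Dcn averaged, and the difference was 0.117 for Gsn, 0.074 for Pdgfra and 0.017 for Cd34. Without the Myh7 libraries, Cd34 was -0.071 for Tg against WT untrained, Dcn -0.158 trained and Clec3b 0.029 for training averaged. Without WT trained replicates 2 and 4, Gsn in the difference was 0.02 and Dcn for Tg against WT averaged 0.014.

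With 1 library left out, estimates changed sign within these ranges. For training in WT, Clec3b ran from -0.06 to 0.177 and Ly6a from -0.123 to 0.174, and for training averaged Clec3b from -0.094 to 0.022. For Tg against WT untrained, Dpp4 ran from -0.418 to 0.008, Lum from -0.083 to 0.147 and Pdgfra from -0.116 to 0.113, and trained, Dcn ran from -0.159 to 0.245 and Pdgfra from -0.21 to 0.019. Averaged over training, Cd34 ran from -0.052 to 0.031, Dcn from -0.15 to 0.052 and Pdgfra from -0.113 to 0.005. In the difference, Dcn ran from -0.017 to 0.387, Dpt from -0.323 to 0.019, Gsn from -0.169 to 0.14 and Pdgfra from -0.216 to 0.042. Each group has only 4 libraries, and how far the spread between libraries or the depth limits these comparisons was not tested. Dpp4 rests on 69 counts in its lowest library and Clec3b on 139.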

Other observations

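The lists of satellite cell and Schwann cell genes gave no call in any of the 7 comparisons with edgeR on all libraries. With 1 library left out, 0 to 1 satellite cell genes were called lower in each of the comparisons averaged over genotypes or training, as 1 was with DESeq2, and no Schwann cell gene was called. Of 8 satellite cell genes, 3 had a negative training estimate averaged over genotypes (median 0.029), against 49.5% of all genes. Pax7, the transcription factor that marks these stem cells, had a log2 fold change of 0.29 (SE 0.115, edgeR adjusted p = 0.266) and Chodl, a membrane lectin, of -0.46 (SE 0.114, adjusted p = 0.0908). Of 9 Schwann cell genes, 8 had a negative training estimate averaged over genotypes (median -0.125), against 49.5% of all genes. None of the 9 was negative for Tg against WT in untrained muscle (median 0.639), against 49.2% of all genes. In that comparison 3 of the 9 had an unadjusted p under 0.05, against 16.2% of all genes. The transcription factor Sox10 had 0.64 there (SE 0.319, adjusted p = 0.34). Their summed level was 31.4 to 50 CPM in WT untrained and 37.5 to 88.0 CPM in Tg untrained.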
